A study of Arachis hypogaea with 30 samples.

Results

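The genes described here are those that the deposited annotation of the peanut genome (Arachis hypogaea, an allotetraploid legume) places in the KEGG pathway of porphyrin and chlorophyll metabolism. They are the 160 of 82955 annotated genes whose pathway entry names that map, and 111 of them reached an FPKM (fragments scaled by exon length and library total) of at least 1 in at least 3 of the 30 libraries. Each gene was assigned to 1 of 31 enzymatic steps from its KEGG orthology number, and every step kept at least 1 copy. The kept genes were 40 of 66 for the early tetrapyrrole steps, 32 of 42 for chlorophyll synthesis, 16 of 19 for chlorophyll breakdown and 23 of 33 for heme and bilins. Poly(A) RNA was sequenced from whole hydroponic seedlings at the three-leaf stage of cultivar HY33, which the labels call salt-tolerant, and of cultivar HY9115, called salt-sensitive. In each cultivar 3 libraries came from water at 0 h and 3 libraries each from 3, 12, 24 and 48 h in 100 mM NaCl.

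Chlorophyll and heme are made in the plastid from a shared precursor. Glutamate bound to its tRNA is reduced and rearranged to 5-aminolevulinic acid, and further enzymes condense that acid to protoporphyrin IX. Magnesium chelatase puts magnesium into protoporphyrin IX and opens the chlorophyll branch, while ferrochelatase puts iron in and opens the branch to heme and, through heme oxygenase, to the bilin pigment of phytochrome. In the chlorophyll branch a methyltransferase, a cyclase, a divinyl reductase and protochlorophyllide reductase build chlorophyllide, geranylgeranyl reductase and chlorophyll synthase supply and attach the phytol tail, and chlorophyllide a oxygenase makes chlorophyll b. Breakdown runs from chlorophyll b back to chlorophyll a, then removes magnesium and phytol, after which pheophorbide a oxygenase opens the ring and a reductase acts on the red catabolite. Free tetrapyrroles are phototoxic, so plants are known to adjust the pathway to light and to the binding proteins of the antenna.

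The libraries held 13072324 to 18788677 counts each, with a count for 48854 to 51439 genes, and all 160 genes of the pathway took 0.227 to 0.537% of the counts. The 0 h libraries are the only ones from water, and effects of salt, of time in culture and of the hour of the day therefore cannot be told apart. The labels call the replicates biological without saying how many plants each holds, and the p-values measure the spread between these libraries, which may be technical. In RNA from whole seedlings, fewer green cells and less RNA per cell cannot be told apart either. Genes called higher or lower below had a Benjamini-Hochberg adjusted p under 0.05 in edgeR's quasi-likelihood test over 42311 genes and a log2 change of at least 1 in size, and "rose" and "fell" are used of those calls alone. All 4 salt times of a cultivar were compared with the same 3 libraries at 0 h. Values after ± are standard deviations over 3 libraries for FPKM and standard errors for log2 changes. Near-identical copies from both subgenomes can share reads, and 20 of the 111 genes overlap another gene on the chromosome, so single copies are less certain than steps. The genes are named by orthology alone, and the gene ontology terms named another activity for 5 of the 111.

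The level threshold left out 49 genes, 24 of them with no count in any library. Just inside it were Ah16g004400 (glutamate-1-semialdehyde aminomutase) and Ah16g104800 (protoporphyrinogen oxidase), each at 1 FPKM or more in 3 libraries and with highest values of 1.47 and 1.36 FPKM. Just outside it were a chlorophyll synthase copy, Ah02g298400, which passed 1 FPKM in 2 libraries and reached 2.2 FPKM, and Ah04g271600 and Ah06g451000, which passed it in 1 library each.

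Levels per length at 0 h differed widely between steps. Protochlorophyllide reductase, the enzyme that needs light, had the highest summed level of the 31 steps at 359.6 ± 8.68 FPKM in HY33 and 418 ± 25.1 FPKM in HY9115, over 4 copies. The cyclase that closes the fifth ring followed in HY33 at 322 ± 7.53 FPKM over 2 copies, against 342 ± 14.7 FPKM in HY9115. Heme oxygenase, which opens the heme ring, summed to 249.5 ± 24.6 FPKM in HY33 and 395 ± 39.7 FPKM in HY9115. The cyclase thus stood above heme oxygenase in HY33 and below it in HY9115, where the sums of heme oxygenase and protochlorophyllide reductase lay within their spread of each other. All 5 breakdown steps were far lower, and the highest of them was pheophorbide a oxygenase at 94.5 ± 2.31 FPKM in HY33 and 95.1 ± 2.21 FPKM in HY9115. Red chlorophyll catabolite reductase, with a single copy, stood at 8.07 ± 0.579 FPKM in HY33 and 11.03 ± 0.741 FPKM in HY9115.

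By 48 h of salt the chlorophyll synthesis genes had lost most of their summed level, and the breakdown genes of the pathway had not. In HY33 the 32 synthesis genes summed to 1268 ± 25.2 FPKM at 0 h, 989.8 ± 37.6 at 3 h, 739 ± 29.9 at 12 h, 847 ± 7.28 at 24 h and 414 ± 17.1 at 48 h. In HY9115 they summed to 1415 ± 51.2 FPKM at 0 h, 722 ± 25.2 at 3 h, 731 ± 44.2 at 12 h, 1018 ± 72.8 at 24 h and 435 ± 12.7 at 48 h. The level at 48 h was 32.6% of that at 0 h in HY33 and 30.7% in HY9115, and in both cultivars the 24 h libraries lay above those of 12 h. The 16 breakdown genes summed to 157 ± 8.24 FPKM at 48 h in HY33, against 182 ± 3.44 FPKM at 0 h, and to 217.7 ± 2.04 FPKM at 48 h in HY9115, against 192 ± 6.71 FPKM at 0 h. In FPKM their 48 h libraries were thus below the 0 h libraries in HY33, which reverses when the libraries are scaled by edgeR's TMM factors (191 ± 7.56 at 48 h against 170 ± 1.16 at 0 h), and above them in HY9115 under either scaling. With TMM factors the synthesis sum at 48 h was 42.4% of that at 0 h in HY33 and 36.8% in HY9115. No test was made of these sums, which a few abundant genes dominate. Neither the sums nor the ratio below include 4 kept breakdown genes that the annotation places outside the pathway. The summed level of those 4 was lower at 48 h than at 0 h in both cultivars, under either scaling. That sum joins 2 genes that fell at 48 h with 2 whose fitted changes were positive and not called, in each cultivar.

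The ratio of summed breakdown to summed synthesis levels, which no scaling of libraries alters, moved accordingly. In HY33 it was 0.357, 0.412 and 0.372 in the 48 h libraries, against 0.146, 0.142 and 0.143 at 0 h. In HY9115 it was 0.495, 0.514 and 0.494 in the 48 h libraries, against 0.137, 0.134 and 0.135 at 0 h. All 12 salt-time libraries of each cultivar had a higher ratio than any 0 h library of that cultivar. At 3 h the means were 0.177 ± 0.0136 in HY33 and 0.239 ± 0.00709 in HY9115, and at 24 h they were 0.193 ± 0.0103 in HY33 and 0.192 ± 0.0100 in HY9115.

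**Figure D1:**
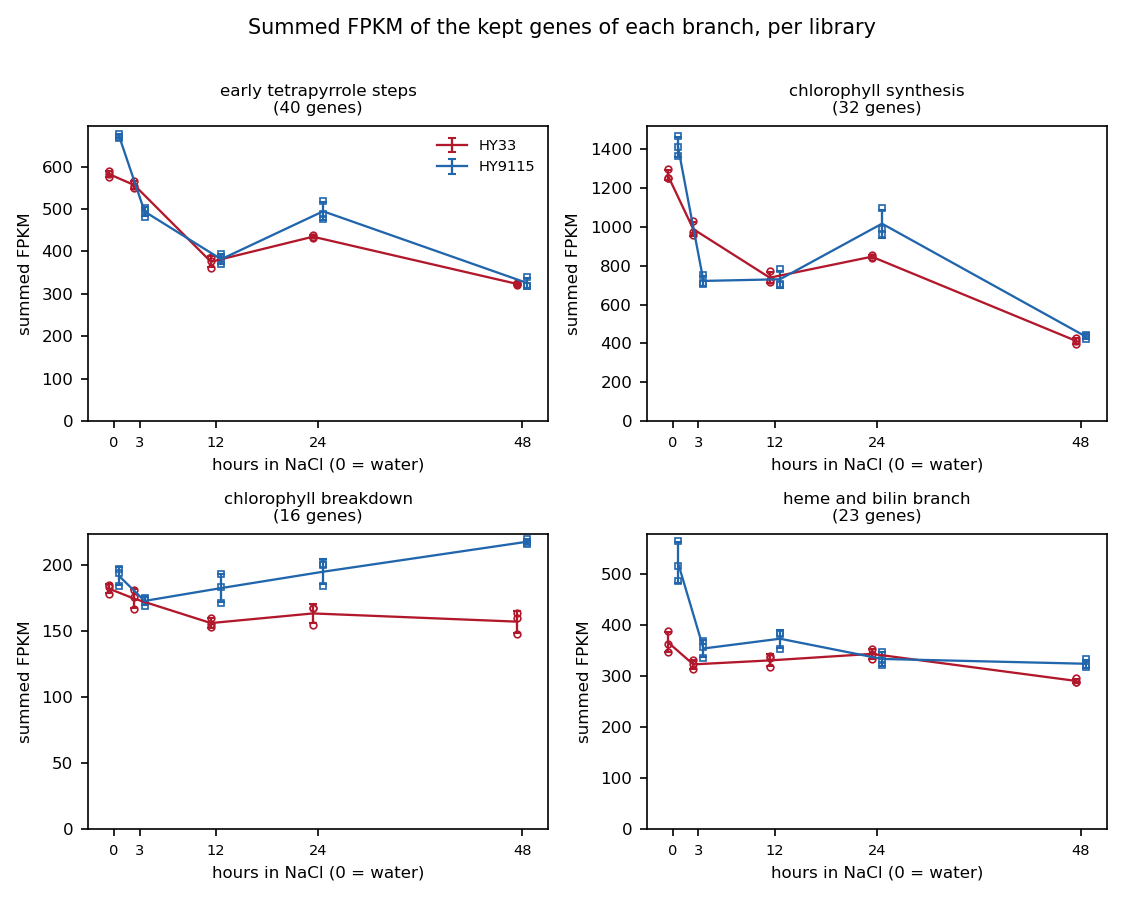
Summed FPKM of the early, synthesis, breakdown and heme and bilin genes (vertical axes) against hours in 100 mM NaCl (horizontal axis, 0 h in water), for HY33 and HY9115; points are libraries, lines join means and bars are standard deviations over 3 libraries. Synthesis sums are lowest at 48 h in both cultivars (414 FPKM in HY33 and 435 FPKM in HY9115), while mean breakdown sums stay between 156 and 217.7 FPKM.

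Counted gene by gene, the synthesis genes were called lower far more often than higher. In HY33, 8 of 32 fell at 3 h, 8 at 12 h, 3 at 24 h and 16 at 48 h, and 1 rose, at 3 h. Later 0 were called higher in HY33 by edgeR, DESeq2 or limma, and 2, 2 and 0 genes had a higher value with an unadjusted p under 0.05 at 12, 24 and 48 h. Over all 42311 tested genes the share called lower in HY33 was 7.45% at 3 h, 12.9% at 12 h, 13.4% at 24 h and 20.1% at 48 h, and the share called higher was 6.61%, 11.0%, 10.4% and 14.3% at those times. In HY9115, 9 of 32 fell at 3 h, 9 at 12 h, 2 at 24 h and 24 at 48 h, and edgeR called 0 higher at each time, as did DESeq2 and limma, with an unadjusted p under 0.05 for 1, 1, 2 and 1 of the higher values. There the share of all tested genes called lower was 6.43% at 3 h, 12.4% at 12 h, 10.5% at 24 h and 21.3% at 48 h, and the share called higher was 8.27%, 11.4%, 9.20% and 14.5%. The share of synthesis genes called lower at 24 h was therefore below the background in both cultivars, and the shares at 3, 12 and 48 h were above it. Without the fold threshold this differed at 24 h. By adjusted p alone 23 of the 32 were lower there in each cultivar, against 28.9% of all tested genes in HY33 and 25.2% in HY9115. The median log2 change of the 32 genes was -0.33, -0.67, -0.45 and -1.04 at 3, 12, 24 and 48 h in HY33 and -0.64, -0.79, -0.43 and -1.43 in HY9115, against medians of -0.03 to 0.03 over all tested genes. In each cultivar 26 of the 32 genes had their lowest group mean, in FPKM, at 48 h, and with TMM factors 21 in HY33 and 23 in HY9115. In FPKM this also held for 26 of 40 early genes in HY33 and 25 in HY9115. It held for 9 and 11 of 16 breakdown genes and for 10 and 7 of 23 heme and bilin genes. The share of all tested genes was not counted, so this is not read as particular to synthesis genes.

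The other roles were read against the same background. Of the 16 breakdown genes 2 rose and 3 fell at 48 h in HY33 (12.5% and 18.8%, against 14.3% and 20.1% of all tested genes), and 3 rose and 2 fell at 48 h in HY9115 (18.8% and 12.5%, against 14.5% and 21.3%), each within 2 genes of the background share. Their median log2 changes at 3, 12, 24 and 48 h were 0.012, -0.017, -0.064 and -0.42 in HY33 and -0.059, -0.11, 0.036 and -0.42 in HY9115. Of the 40 genes of the early steps, 3, 3, 1 and 4 fell at 3, 12, 24 and 48 h in HY33, shares of 7.5, 7.5, 2.5 and 10% that lay at or below the background. In HY9115 3, 10, 2 and 14 fell (7.5, 25, 5 and 35%), above the background at 12 and 48 h, near it at 3 h and below it at 24 h. By adjusted p alone, without the fold threshold, 7, 23, 19 and 19 of the 40 were lower at those times in HY33. In HY9115 the counts were 22, 24, 21 and 22. The shares of all tested genes were 22.8, 31.1, 28.9 and 35.0% in HY33 and 20.2, 30.1, 25.2 and 35.5% in HY9115. The medians of the 40 genes lay between -0.10 and -0.35 in HY33 and between -0.28 and -0.67 in HY9115. Of them 2 rose at 48 h in HY33 and 2 at 3 h in HY9115. The 23 heme and bilin genes had medians between 0.06 and 0.34 in HY33 and between -0.09 and 0.28 in HY9115. At 48 h 4 of them rose and 2 fell in HY33 (17.4% and 8.7%), and 3 rose and 2 fell in HY9115 (13% and 8.7%), so that the share that fell was below the background. Scaling by total counts in place of TMM factors puts the median change of all tested genes at -0.39 at 48 h in HY33 and -0.27 in HY9115, at -0.13 at 12 and 24 h in HY33 and at -0.14 at 12 h in HY9115. Under that scaling 6 of the 111 genes rose and 50 fell at 48 h in HY33, against 8 and 25 with TMM factors, and 5 rose and 50 fell in HY9115, against 6 and 42. Over all tested genes that scaling called 4201 higher and 11842 lower at 48 h in HY33, and 4837 higher and 10970 lower in HY9115. FPKM values carry total-count scaling, so their ratios at 48 h lie below the fitted changes.

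**Figure D2:**
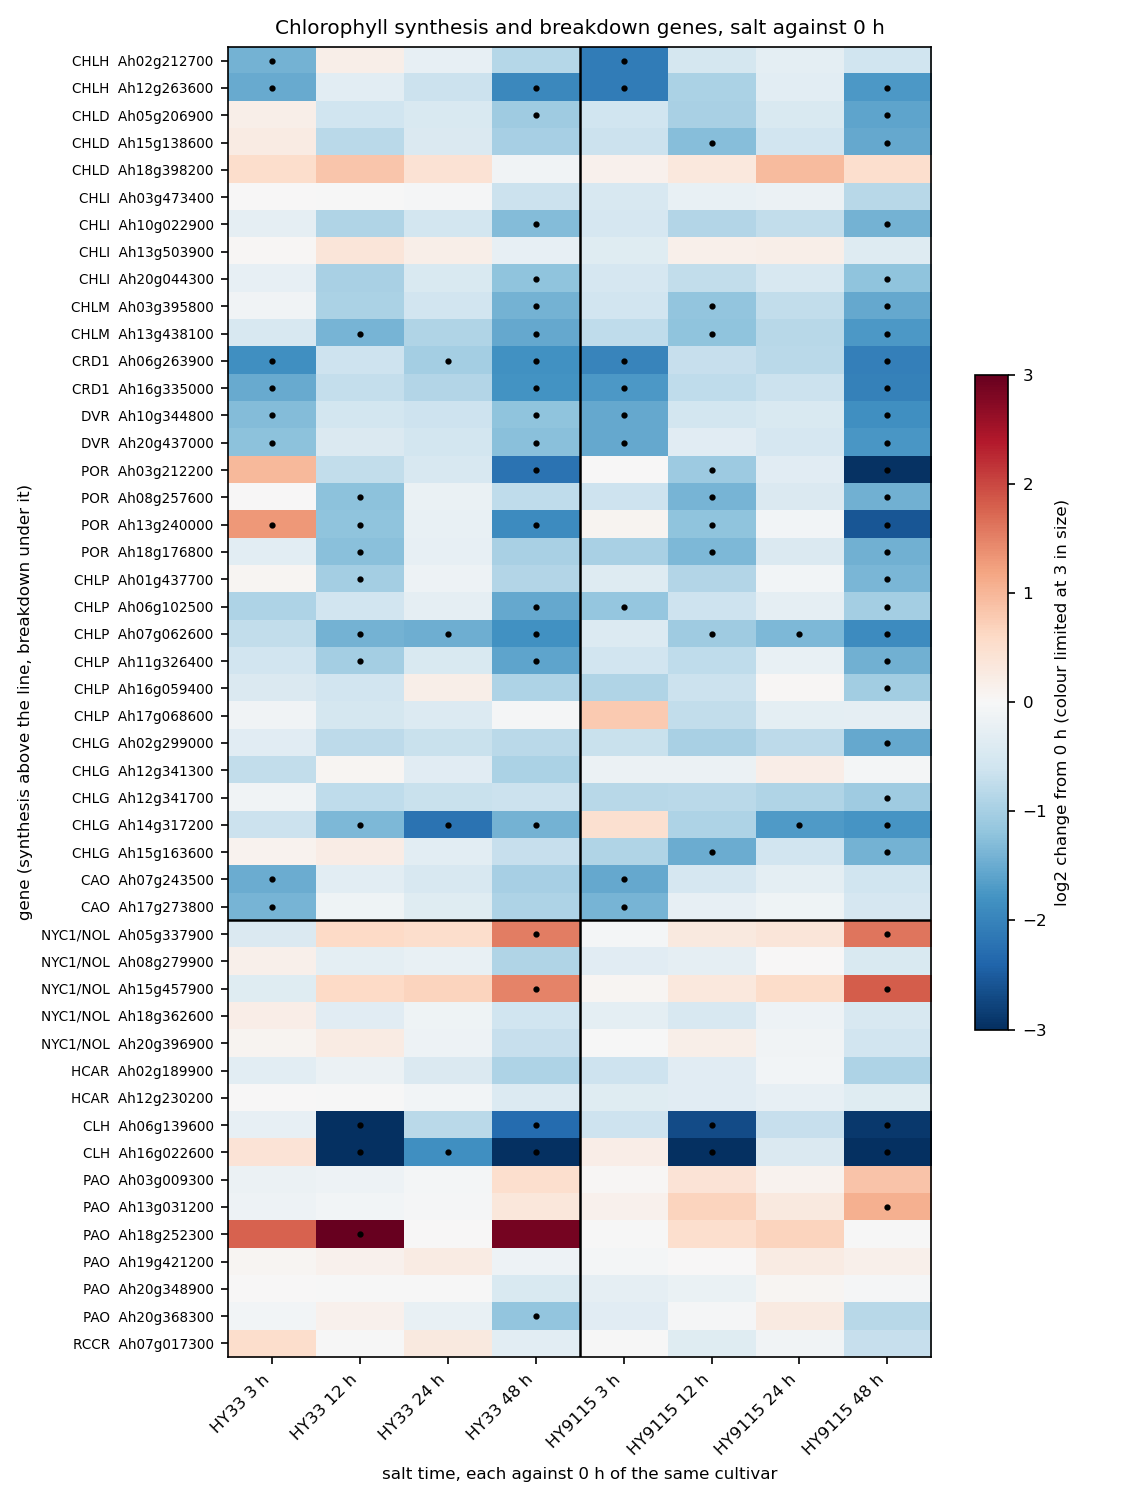
Fitted log2 change against 0 h for the 48 kept synthesis and breakdown genes (rows, grouped by step) in the 8 comparisons of a salt time with 0 h (columns, HY33 left and HY9115 right); colour is limited at 3 in size and dots mark genes called higher or lower. At 48 h 16 synthesis genes in HY33 and 24 in HY9115 carry a dot for lower, and the dots at 3 h sit mainly in the chelatase H, cyclase, divinyl reductase and chlorophyllide a oxygenase rows.

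Within synthesis, copies of 4 steps fell within 3 h in both cultivars and lay nearer to their 0 h level at 12 h. They were magnesium chelatase subunit H, which binds the porphyrin, the cyclase, divinyl reductase and chlorophyllide a oxygenase. The cyclase copy Ah06g263900 (chromosome 6, positions 85045762 to 85048406, plus strand, in the deposited annotation, whose build is not given in the sources used here) stood at 46.3, 51.1 and 49.99 FPKM in the HY33 libraries at 3 h, against 168, 166 and 179.9 FPKM at 0 h (log2 change -1.83 ± 0.08, edgeR adjusted p = 7.77e-20). In HY9115 it stood at 49.8, 44.5 and 45.1 FPKM at 3 h, against 184, 194 and 174 FPKM at 0 h (log2 change -1.97 ± 0.08, edgeR adjusted p = 1.22e-20). The groups lay far apart in both cultivars, with a level at 3 h under every other group but that of 48 h. At 12 h the HY33 libraries had returned to 105, 102 and 105 FPKM and those of HY9115 to 108, 101 and 104 FPKM, with log2 changes from 0 h of -0.62 ± 0.07 and -0.70 ± 0.07 that were not called. At 48 h the level was 39.3, 34.4 and 37.97 FPKM in HY33 and 37.5, 34.4 and 38.97 FPKM in HY9115 (-1.83 and -2.06 on the log2 scale, both called). The other cyclase copy, Ah16g335000, followed the same course, with -1.52 at 3 h and -1.79 at 48 h in HY33 and -1.72 and -2.04 in HY9115.

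Subunit H had the largest called fall of any kept gene at 3 h in HY9115. Its copy Ah02g212700 (chromosome 2, positions 61195096 to 61201887, plus strand) stood at 31.4, 26.9 and 32.7 FPKM at 3 h in HY33, against 67.8, 82.4 and 87.6 FPKM at 0 h (log2 change -1.41 ± 0.10, edgeR adjusted p = 1.34e-13). HY9115 had 25.3, 25.5 and 25.7 FPKM at 3 h, against 104, 112 and 115 FPKM at 0 h (log2 change -2.09 ± 0.10, edgeR adjusted p = 6.9e-18). All 3 h libraries lay below all 0 h libraries. The cultivars' log2 changes at 3 h differed by 0.68 ± 0.14 (edgeR adjusted p = 0.000947), under the fold threshold for a call. At 12 h this copy stood at 87.8, 84.1 and 79.1 FPKM in HY33 and 82.3, 71.5 and 56.5 FPKM in HY9115, and only the HY33 libraries overlapped those of 0 h. The second copy, Ah12g263600, also fell at 3 h (-1.52 in HY33, -2.09 in HY9115) and fell again at 48 h (-1.92 and -1.73), where Ah02g212700 was at -0.85 and -0.60 and not called.

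Chlorophyllide a oxygenase, which makes chlorophyll b, and divinyl reductase shared this course. For the oxygenase copy Ah07g243500 the libraries at 3 h held 10.1, 10.7 and 11.4 FPKM in HY33, against 29.1, 26.9 and 33.1 FPKM at 0 h, and 9.24, 11.1 and 9.33 FPKM in HY9115, against 28.3, 29.4 and 29.3 FPKM at 0 h. These log2 changes were -1.49 ± 0.09 in HY33 and -1.53 ± 0.09 in HY9115 (edgeR adjusted p = 3.87e-16 and 2.18e-16). At 12, 24 and 48 h neither oxygenase copy was called in either cultivar, with values between -0.99 and -0.12. Divinyl reductase Ah20g437000 fell at 3 h (-1.24 in HY33 and -1.54 in HY9115) and at 48 h (-1.26 and -1.75) and was not called in between. Summed over copies, the steps at 3 h were at 37.2% of their 0 h level for subunit H, 31.9% for the cyclase, 42.2% for divinyl reductase and 37.4% for the oxygenase in HY33. In HY9115 they were at 23.1%, 27.4%, 34.1% and 35.8%.

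**Figure D3:**
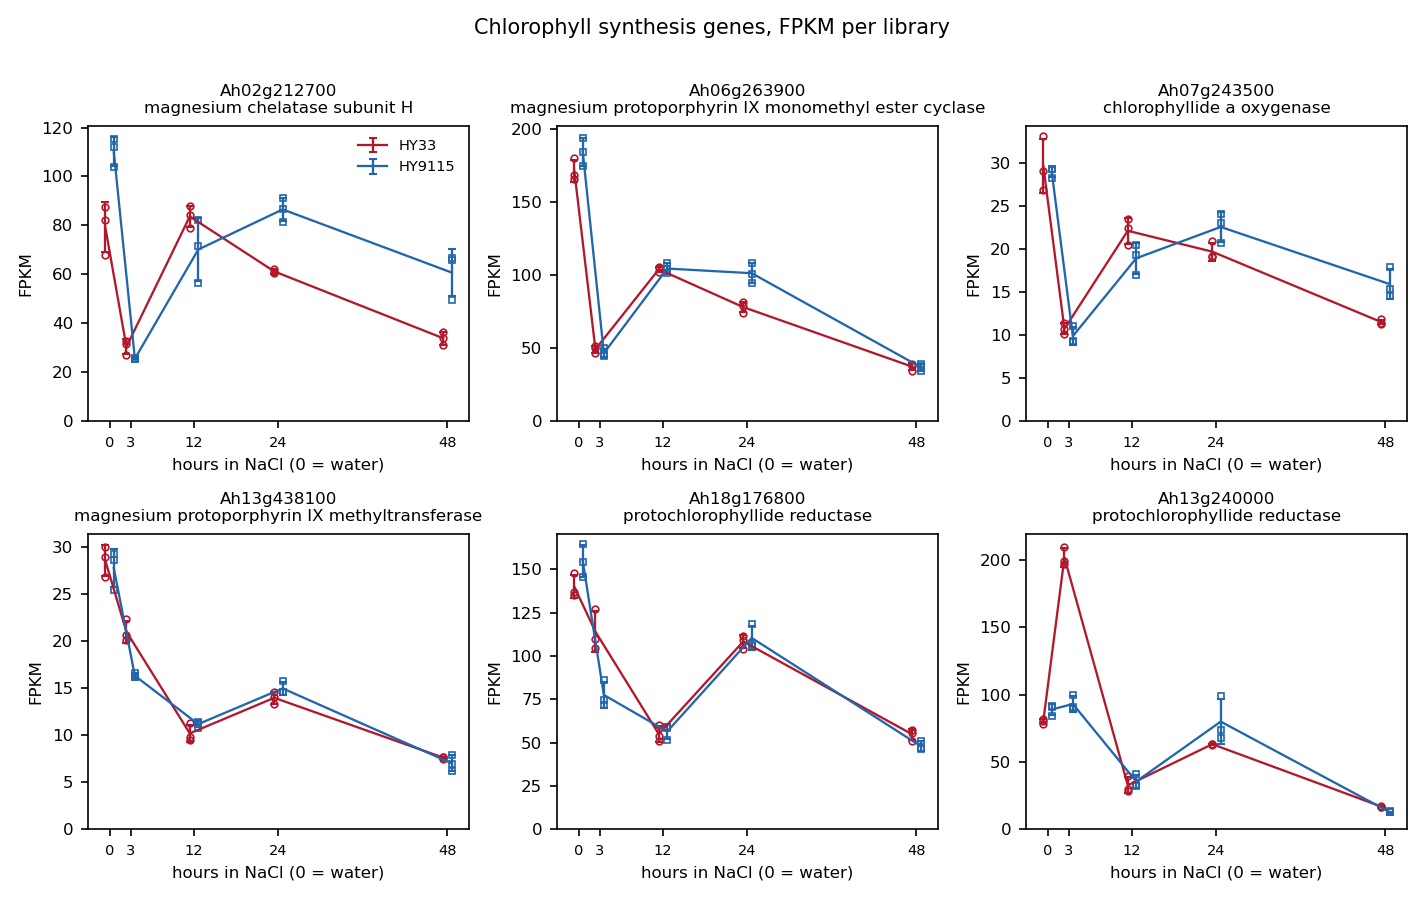
FPKM (vertical axes) against hours in 100 mM NaCl (horizontal axis) for 6 chlorophyll synthesis genes in HY33 and HY9115; points are libraries, lines join means and bars are standard deviations over 3 libraries. The chelatase H, cyclase and chlorophyllide a oxygenase genes dip at 3 h, the methyltransferase and Ah18g176800 are low at 12 h, and Ah13g240000 reaches 197 to 210 FPKM at 3 h in HY33 but stays between 89.0 and 99.7 FPKM in HY9115.

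Protochlorophyllide reductase and the methyltransferase were lowest, before 48 h, at 12 h. The most abundant reductase copy, Ah18g176800, stood at 59.98, 50.8 and 54.0 FPKM at 12 h in HY33, against 148, 137 and 136 FPKM at 0 h (log2 change -1.25 ± 0.09, edgeR adjusted p = 9.04e-14). The HY9115 libraries held 58.4, 51.6 and 59.2 FPKM at 12 h, against 154, 165 and 146 FPKM at 0 h (log2 change -1.34 ± 0.09, edgeR adjusted p = 1.59e-14). By 24 h it was back at 104, 111 and 109.5 FPKM in HY33 and 107, 106 and 119 FPKM in HY9115, which was below all 0 h libraries and above all 12 h libraries. The methyltransferase copy Ah13g438100, which acts between the chelatase and the cyclase, had 11.3, 9.49 and 9.84 FPKM at 12 h in HY33, against 28.9, 26.8 and 30.04 FPKM at 0 h (log2 change -1.39 ± 0.08, edgeR adjusted p = 8.16e-16). Its HY9115 libraries held 11.3, 11.4 and 10.8 FPKM at 12 h, against 28.6, 29.3 and 25.5 FPKM at 0 h (log2 change -1.20 ± 0.08, edgeR adjusted p = 2.67e-14). Unlike the reductase, it had come back only to 14.6, 14.03 and 13.3 FPKM in HY33 and 14.6, 14.6 and 15.8 FPKM in HY9115 at 24 h, and at 48 h it was at -1.53 and -1.73 on the log2 scale.

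A protochlorophyllide reductase gene was the single synthesis gene called higher, at 3 h in HY33. Ah13g240000 (chromosome 13, positions 29848768 to 29851387, minus strand) stood at 197, 209.7 and 199 FPKM in HY33 at 3 h, against 80.7, 78.5 and 81.5 FPKM at 0 h (log2 change 1.30 ± 0.10, edgeR adjusted p = 8.46e-13). In HY9115 the gene had 99.7, 90.5 and 89.0 FPKM at 3 h, against 91.7, 91.1 and 84.1 FPKM at 0 h (log2 change 0.08 ± 0.10, edgeR adjusted p = 0.559). The HY33 libraries at 3 h lay above every other library of this gene, and the HY9115 libraries of 3 h and 0 h overlapped. The difference between the cultivars' changes was 1.22 ± 0.14 (edgeR adjusted p = 1.4e-07), and at 3 h HY33 was above HY9115 by 1.08 ± 0.10 (edgeR adjusted p = 2.31e-10). Its counterpart Ah03g212200 held 44.1, 50.6 and 45.6 FPKM in HY33 at 3 h, against 23.8, 24.03 and 22.6 FPKM at 0 h, a log2 change of 0.97 ± 0.12 (edgeR adjusted p = 2.12e-08) that missed the fold threshold. In HY9115 it held 32.7, 30.6 and 32.4 FPKM at 3 h, against 32.4, 34.3 and 28.6 FPKM at 0 h (0.02), and the difference between the changes was 0.95 ± 0.17 (edgeR adjusted p = 0.000106). At 48 h Ah03g212200 had the largest called fall of the 32 synthesis genes in both cultivars (-2.22 in HY33 and -2.96 in HY9115), and Ah13g240000 fell by nearly as much (-1.89 and -2.56). The 4 copies together were at 134% of their 0 h level at 3 h in HY33 and at 70.4% in HY9115, then at 40.8% and 37.1% at 12 h.

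The chelatase subunits I and D, which use ATP to drive the insertion of magnesium, kept most of their level at 3 h and were low at 48 h. The subunit I copy with the highest level, Ah03g473400, held 29.6, 28.6 and 28.2 FPKM at 12 h in HY33, against 30.1, 30.5 and 32.4 FPKM at 0 h. The HY9115 libraries held 29.4, 29.3 and 26.6 FPKM at 12 h, against 36.9, 37.05 and 33.7 FPKM at 0 h. It was not called at any salt time, and the lowest changes were -0.65 in HY33 and -0.83 in HY9115, at 48 h. The 4 subunit I copies together were at 45.9% of the 0 h level at 48 h in HY33 and 46.6% in HY9115. Subunit D copy Ah05g206900 held 4.55, 4.57 and 4.68 FPKM at 48 h in HY33, against 11.7, 13.5 and 12.6 FPKM at 0 h (log2 change -1.08 ± 0.09, edgeR adjusted p = 1.76e-12), a call lost without HY33 0 h replicate 2 (log2 change -0.98). In HY9115 it held 4.49, 4.14 and 4.91 FPKM at 48 h, against 15.98, 16.1 and 16.2 FPKM at 0 h (log2 change -1.58 ± 0.09, edgeR adjusted p = 7.3e-17). At 3 h the same gene was at 0.18 in HY33 and -0.60 in HY9115, and the difference between these changes was 0.77 ± 0.12 (edgeR adjusted p = 1.54e-05).

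Geranylgeranyl reductase and chlorophyll synthase, which make and attach the phytol tail, had the lowest summed levels at 48 h in both cultivars. At 3 h the sum over copies was 82.3% of that at 0 h for the reductase and 84.8% for the synthase in HY33, and 68.8% and 62.5% in HY9115, where the reductase copy Ah06g102500 fell (-1.15, against -0.92 in HY33, not called), a copy named after its value was seen. Ah01g437700, the reductase copy with the highest level, had 23.7, 24.99 and 25.6 FPKM at 12 h in HY33, against 51.5, 54.6 and 56.9 FPKM at 0 h (log2 change -1.03 ± 0.08, edgeR adjusted p = 9.91e-13). That call did not hold without HY33 0 h replicate 2 (-0.98), HY33 0 h replicate 3 (-0.98) or HY33 12 h replicate 1 (-0.96). In HY9115 it fell at 48 h, to 20.8, 18.0 and 18.3 FPKM, against 57.1, 62.03 and 56.4 FPKM at 0 h (log2 change -1.36 ± 0.08, edgeR adjusted p = 4.36e-16). The main chlorophyll synthase copy, Ah02g299000, held 10.3, 10.3 and 10.2 FPKM at 48 h in HY33, against 24.8, 23.2 and 22.3 FPKM at 0 h, a log2 change of -0.82 ± 0.09 below the fold threshold. In HY9115 it held 7.58, 8.62 and 7.72 FPKM at 48 h, against 27.8, 29.3 and 25.8 FPKM at 0 h (log2 change -1.53 ± 0.09, edgeR adjusted p = 2.55e-16), and the cultivars' changes differed by 0.71 ± 0.13 (edgeR adjusted p = 8.63e-05). Both steps thus stood below 0 h in all 48 h libraries, at 33.4% of the summed 0 h level for the reductase and 44.5% for the synthase in HY33, and at 33.03% and 33.2% in HY9115.

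Of the low-level synthase copies, Ah14g317200 fell at 12, 24 and 48 h in HY33 and at 24 and 48 h in HY9115. It held 0.75, 0.12 and 0.43 FPKM at 24 h in HY33, against 1.86, 2.06 and 2.57 FPKM at 0 h. Its HY9115 libraries had 0.28, 0.5 and 0.67 FPKM at 24 h, against 1.46, 1.35 and 2.11 FPKM at 0 h. Another, Ah15g163600, had 1.3, 2.21 and 1.81 FPKM at 12 h in HY33, against 1.61, 1.26 and 1.97 FPKM at 0 h. HY9115 gave 1.19, 1.28 and 0.94 FPKM at 12 h, against 4.0, 3.32 and 3.14 FPKM at 0 h. Its change was 0.23 ± 0.30 in HY33, not called, and -1.49 ± 0.29 in HY9115, called lower, and the difference between the changes, 1.72 ± 0.42, was called (edgeR adjusted p = 0.00465). Ah07g062600 carries the orthology of geranylgeranyl reductase but gene ontology terms of an alcohol dehydrogenase, and it fell at 12, 24 and 48 h in both cultivars, with log2 changes of -1.07 to -1.897. Its 12 h call in HY9115 was lost without HY9115 12 h replicate 3 (-0.95).

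In the early steps single glutamyl-tRNA reductase copies fell clearly, and at 12 and 48 h more genes were called lower in HY9115 than in HY33. Without the fold threshold the counts were closer. By edgeR's adjusted p alone 23 of 40 genes were lower in HY33 and 24 in HY9115 at 12 h, and 19 and 22 at 48 h. By that measure the cultivars' changes differed for 3 of the 40 at 12 h and 15 at 48 h, against 15.7% and 23.7% of all tested genes. Glutamyl-tRNA reductase is the first committed and most regulated enzyme of the pathway. Its copy Ah07g277700 held 5.4, 4.49 and 5.43 FPKM at 3 h in HY33, against 16.8, 16.4 and 18.1 FPKM at 0 h (log2 change -1.77 ± 0.12, edgeR adjusted p = 5.78e-14). In HY9115 it held 4.04, 3.21 and 3.54 FPKM at 3 h, against 15.6, 14.6 and 13.9 FPKM at 0 h (log2 change -2.01 ± 0.13, edgeR adjusted p = 5.93e-15). It was the 1 gene among the 40 called lower at all 4 salt times in HY33 (-1.03 at 12 h, -1.07 at 24 h and -2.11 at 48 h). The 12 h call was lost without HY33 0 h replicate 3 (-0.97), HY33 12 h replicate 2 (-0.96) or HY33 12 h replicate 3 (-0.94), and the 24 h call without HY33 24 h replicate 1 (-0.996). The copy with the highest level, Ah08g106100, held 13.9, 14.1 and 14.5 FPKM at 3 h in HY33, against 14.7, 14.1 and 14.9 FPKM at 0 h. In HY9115 its libraries held 13.8, 12.6 and 14.5 FPKM at 3 h, against 14.02, 16.4 and 13.7 FPKM at 0 h. Its libraries overlapped in both cultivars and it was called at no salt time, so copies of this step differed in their course.

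Downstream of it, glutamate-1-semialdehyde aminomutase finishes 5-aminolevulinic acid, and porphobilinogen synthase and hydroxymethylbilane synthase join the units. The aminomutase copy Ah13g078400 held 19.3, 19.5 and 19.4 FPKM at 48 h in HY33, against 45.4, 43.9 and 46.1 FPKM at 0 h (-0.84 ± 0.07, under the fold threshold). The values in HY9115 were 19.4, 18.5 and 21.4 FPKM at 48 h, against 53.5, 54.1 and 51.95 FPKM at 0 h (log2 change -1.17 ± 0.07, edgeR adjusted p = 1.13e-15). Hydroxymethylbilane synthase Ah13g126800 fell in both cultivars, to 5.61, 5.03 and 3.79 FPKM at 12 h in HY33, against 12.5, 10.5 and 12.3 FPKM at 0 h. The HY9115 libraries held 4.16, 4.77 and 4.47 FPKM at 12 h, against 14.7, 13.2 and 14.7 FPKM at 0 h (log2 changes -1.19 in HY33 and -1.55 in HY9115). The 4 copies of this step together were at 51.7% of the 0 h level at 12 h in HY33 and 36.6% in HY9115, and at 51.03% and 31.2% at 48 h. For the highest copy, Ah05g205700, HY33 had 11.2, 12.2 and 12.04 FPKM and HY9115 9.92, 10.8 and 9.64 FPKM at 48 h, and the change from 0 h in HY33 lay above that in HY9115 by 0.84 ± 0.14 (edgeR adjusted p = 2.44e-05). Porphobilinogen synthase Ah08g073200, which condenses the acid, was called at no time, with its lowest changes of -0.69 in HY33 and -0.93 in HY9115 at 12 h.

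Uroporphyrinogen-III synthase, which closes the macrocycle, was the early step with copies called higher at 3 h, in HY9115. Its copy Ah08g041900 had 10.2, 10.4 and 12.5 FPKM at 3 h in HY9115, against 5.39, 4.76 and 6.0 FPKM at 0 h (log2 change 1.05 ± 0.19, edgeR adjusted p = 1.68e-05), and Ah17g392100 had 5.65, 5.68 and 5.77 FPKM, against 2.65, 3.09 and 2.45 FPKM (log2 change 1.08 ± 0.14, edgeR adjusted p = 8.2e-08). In HY33 the changes of these copies were 0.96 ± 0.18 and 0.73 ± 0.13, under the fold threshold, and all 3 h libraries lay above all 0 h libraries in both cultivars. The HY9115 call of Ah08g041900 was lost without HY9115 0 h replicate 2 (0.99) or HY9115 3 h replicate 3 (0.96). At 12 h the same copy was at -0.62 in HY33 and -1.03 in HY9115, and the second value lost its call when HY9115 0 h replicate 1 or 3 or HY9115 12 h replicate 1 or 3 was left out (-0.876 to -0.997). The third copy, Ah17g391900, had few counts and did not share the higher level at 3 h. It had 4, 8 and 10 counts at 3 h in HY33, against 8, 15 and 16 at 0 h. In HY9115 it had 10, 6 and 9, against 11, 17 and 15. It was called lower in 3 of the 8 comparisons with 0 h. The remaining early steps, uroporphyrinogen decarboxylase, coproporphyrinogen oxidase and protoporphyrinogen oxidase, had summed levels at 48 h of 52.6%, 57.3% and 54.8% of 0 h in HY33 and 51.7%, 45.3% and 44.9% in HY9115. Their most abundant copies were Ah17g089200 (-0.999 in HY33 and -1.25 in HY9115 at 48 h), Ah07g003700 (-0.49 and -0.78) and Ah09g139100 (-0.78 and -0.93), and of these 6 values that of Ah17g089200 in HY9115 was called. The 20 genes around Ah17g089200 on its chromosome also had lower values in HY33, with a median change of -1.27 at 48 h, and their part in its values was not tested.

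The breakdown genes split between steps and also within them. Chlorophyll b reductase copies Ah05g337900 and Ah15g457900 rose at 48 h, and chlorophyllase fell at 12 and 48 h. At 48 h 1 pheophorbide a oxygenase copy rose in HY9115 and another fell in HY33, and the remaining steps were not called. Chlorophyll b reductase starts the breakdown of the antenna by converting chlorophyll b, and its orthology number does not separate the enzyme's NYC1 and NOL forms. Its most abundant copy, Ah05g337900 (chromosome 5, positions 97574264 to 97578470, minus strand), stood at 29.6, 34.2 and 31.7 FPKM at 48 h in HY33, against 13.9, 14.5 and 14.2 FPKM at 0 h (log2 change 1.54 ± 0.08, edgeR adjusted p = 1.79e-17). For HY9115 the values were 35.01, 39.4 and 34.8 FPKM at 48 h, against 13.5, 15.4 and 13.8 FPKM at 0 h (log2 change 1.61 ± 0.08, edgeR adjusted p = 4.15e-18). The 48 h libraries were the highest of all 5 times in each cultivar, with no overlap. Ah15g457900 did the same, with 14.7, 17.1 and 16.1 FPKM at 48 h in HY33, against 7.56, 7.01 and 7.5 FPKM at 0 h. Its HY9115 libraries had 22.4, 23.6 and 19.4 FPKM at 48 h, against 7.23, 8.1 and 6.87 FPKM at 0 h. Its log2 changes were 1.49 ± 0.10 in HY33 and 1.82 ± 0.10 in HY9115 (edgeR adjusted p = 2.56e-15 and 9.11e-18). At 12 h the copies were at 0.59 and 0.60 in HY33 and at 0.29 and 0.32 in HY9115, with no call. The other 3 copies of this step, Ah08g279900, Ah18g362600 and Ah20g396900, were called nowhere and had negative values at 48 h, between -0.90 and -0.46. The 5 copies thus had changes of both signs at 48 h.

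Chlorophyllase, which cuts off the phytol tail, had the largest fitted falls of any kept gene under salt, at 12 h and 48 h. Ah06g139600 (chromosome 6, positions 16577571 to 16581305, plus strand) stood at 0.88, 1.41 and 2.1 FPKM at 12 h in HY33, against 15.9, 16.2 and 17.7 FPKM at 0 h (log2 change -3.41 ± 0.23, edgeR adjusted p = 1.11e-14). In HY9115 it stood at 1.78, 2.45 and 3.28 FPKM at 12 h, against 16.9, 19.4 and 15.6 FPKM at 0 h (log2 change -2.69 ± 0.21, edgeR adjusted p = 3.97e-13). At 24 h it was back at 9.03, 8.96 and 8.05 FPKM in HY33 and 10.2, 10.3 and 10.1 FPKM in HY9115, below the 0 h libraries, with changes of -0.82 ± 0.17 and -0.70 ± 0.17 that were not called. At 48 h it was low again, at 2.51, 2.08 and 3.15 FPKM in HY33 and 2.71, 1.9 and 1.12 FPKM in HY9115 (-2.31 and -2.90, both called). The other copy, Ah16g022600, had few counts. Over 3 libraries it had 2 counts at 12 h in HY33, against 286 at 0 h, a ratio of 0.00806 after scaling by total counts (exact 95% interval 0.000971 to 0.0294, counting error only), and 13 counts at 12 h in HY9115, against 190 at 0 h (ratio 0.0731, interval 0.0382 to 0.128). At 48 h it had 14 counts in HY33 (ratio to 0 h 0.0488, interval 0.0263 to 0.0832) and 5 in HY9115 (ratio 0.0261, interval 0.00838 to 0.0620). At 24 h it had 72 counts in HY33, a called change of -1.84, and 140 in HY9115 (-0.44, not called). Both copies were thus lower at 12 and 48 h than at 3 and 24 h, in each cultivar.

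Pheophorbide a oxygenase opens the porphyrin ring and commits chlorophyll to breakdown. Ah13g031200 (chromosome 13, positions 2779272 to 2783149, plus strand) stood at 37.6, 39.8 and 41.97 FPKM at 48 h in HY33, against 42.9, 40.3 and 38.4 FPKM at 0 h (log2 change 0.35 ± 0.07, edgeR adjusted p = 8.31e-05), and these libraries overlapped. HY9115 had 66.6, 60.8 and 66.96 FPKM at 48 h, against 38.6, 36.04 and 36.02 FPKM at 0 h (log2 change 1.07 ± 0.07, edgeR adjusted p = 6.74e-15), without overlap. The HY9115 call is lost when libraries are scaled by total counts (0.81). At 12 h the HY33 libraries held 35.9, 36.04 and 35.9 FPKM and the HY9115 libraries 60.6, 55.2 and 46.6 FPKM, all of them above those of HY33. The cultivars' changes differed by -0.74 ± 0.10 at 12 h and -0.72 ± 0.10 at 48 h (edgeR adjusted p = 2.6e-06 and 2e-06), both under the fold threshold for a call. The next copy, Ah03g009300, held 26.02, 28.1 and 29.0 FPKM at 48 h in HY33, against 28.1, 26.9 and 21.5 FPKM at 0 h. HY9115 gave 34.9, 32.9 and 34.9 FPKM at 48 h, against 24.0, 22.9 and 21.2 FPKM at 0 h, and the log2 changes, 0.49 ± 0.08 in HY33 and 0.85 ± 0.08 in HY9115, were not called. Ah20g368300 went the other way and fell at 48 h in HY33, to 1.36, 1.78 and 1.38 FPKM, against 3.92, 5.02 and 4.39 FPKM at 0 h (log2 change -1.18 ± 0.25, edgeR adjusted p = 8.74e-05). It overlaps another gene on its chromosome, and Ah20g348900, a further copy with such an overlap, was not called (-0.45 in HY33 and -0.03 in HY9115 at 48 h). Ah18g252300 and Ah19g421200 have this orthology but gene ontology terms of nitrate transport, and Ah19g421200 was at -0.16 in HY33 and 0.15 in HY9115 at 48 h.

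**Figure D4:**
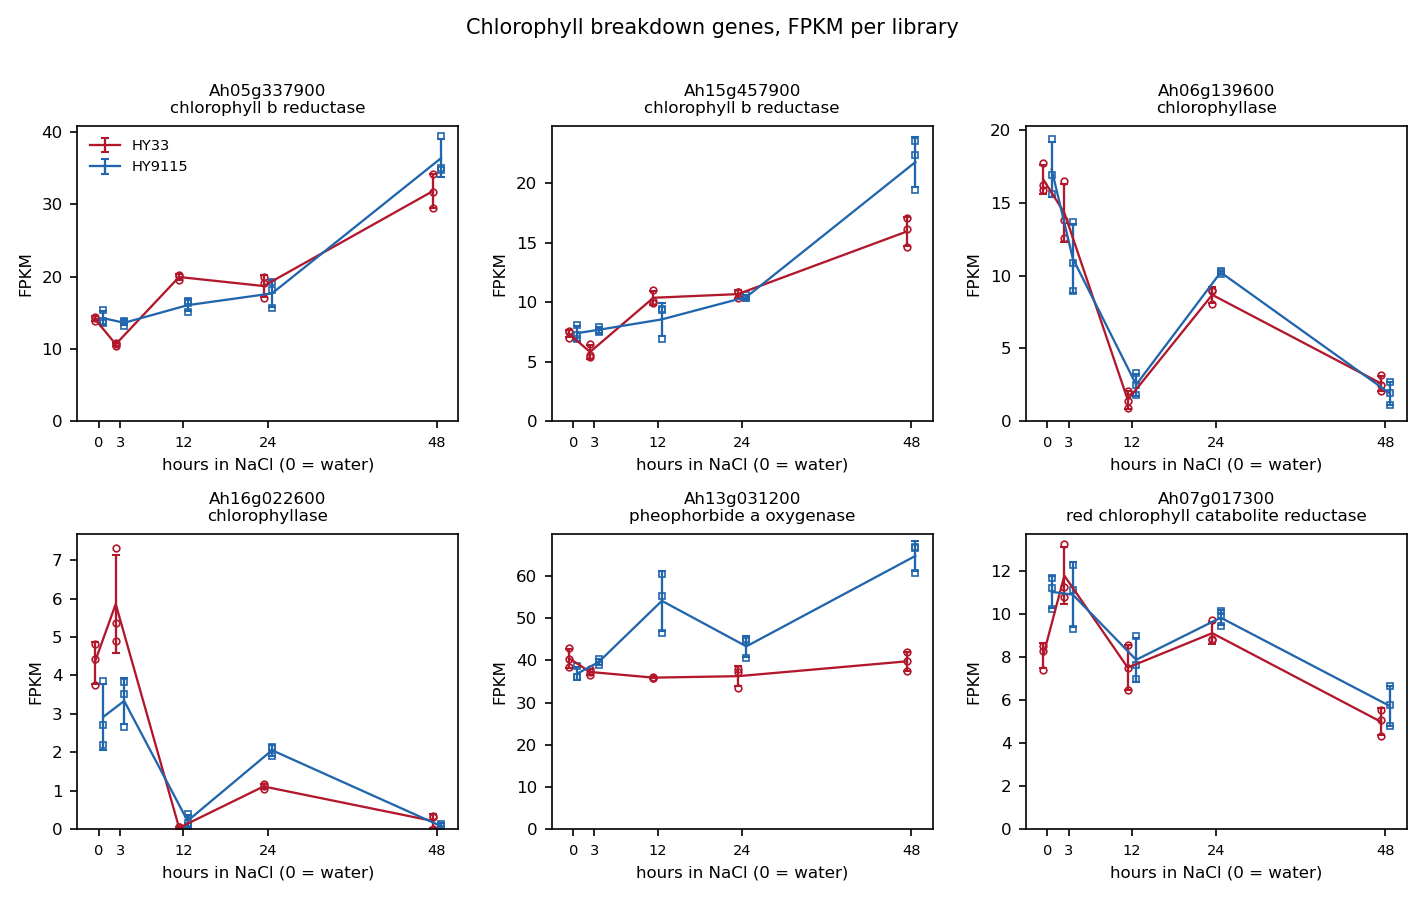
FPKM (vertical axes) against hours in 100 mM NaCl (horizontal axis) for 6 chlorophyll breakdown genes in HY33 and HY9115; points are libraries, lines join means and bars are standard deviations over 3 libraries. Both chlorophyll b reductase genes shown are highest at 48 h, both chlorophyllase genes are near 0 at 12 and 48 h, and Ah13g031200 reaches 60.8 to 67.0 FPKM at 48 h in HY9115 while HY33 lies between 37.6 and 42.0 FPKM there.

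The other breakdown steps drew no call. 7-Hydroxymethyl chlorophyll a reductase, which completes the return from chlorophyll b to chlorophyll a, held 4.9, 6.51 and 4.95 FPKM in copy Ah02g189900 at 48 h in HY33, against 13.2, 12.0 and 14.9 FPKM at 0 h (log2 change -0.92 ± 0.11, edgeR adjusted p = 3.41e-09). In HY9115 the copy held 6.32, 7.32 and 7.18 FPKM at 48 h, against 15.9, 15.7 and 15.4 FPKM at 0 h (log2 change -0.91 ± 0.10, edgeR adjusted p = 1.67e-09). These libraries did not overlap in either cultivar, but the changes were under the fold threshold. The second copy, Ah12g230200, was at -0.40 in HY33 and -0.37 in HY9115. Red chlorophyll catabolite reductase, Ah07g017300, held 13.3, 10.8 and 11.3 FPKM at 3 h in HY33, against 8.53, 7.42 and 8.26 FPKM at 0 h. In HY9115 its libraries held 12.3, 11.1 and 9.29 FPKM at 3 h, against 10.2, 11.7 and 11.2 FPKM at 0 h. Its HY33 libraries at 3 h were all higher than at 0 h and those of HY9115 overlapped, and the difference between the changes was 0.52 ± 0.17 (edgeR adjusted p = 0.0415). The single breakdown gene called higher at 12 h in HY33 was Ah18g252300, and that call rests on 4 counts at 12 h against 0 at 0 h and was lost without HY33 0 h replicate 3 (3.71) or HY33 12 h replicate 1 (2.51).

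Breakdown enzymes that the deposited annotation keeps outside this pathway were counted beside it. Of 6 such genes 4 passed the level threshold. In HY33 these 4 summed to 64.6 ± 3.32 FPKM at 48 h, against 155.4 ± 4.28 FPKM at 0 h. In HY9115 they summed to 76.25 ± 4.52 FPKM at 48 h, against 116.2 ± 6.35 FPKM at 0 h. Ah03g108400, by its ontology terms a pheophytinase, which removes the phytol tail after magnesium is gone, had 39.5, 38.5 and 38.7 FPKM at 12 h in HY33, against 25.1, 24.9 and 24.1 FPKM at 0 h (0.76, not called). In HY9115 it had 39.8, 39.2 and 42.4 FPKM at 12 h, against 19.4, 21.8 and 19.6 FPKM at 0 h (log2 change 1.12 ± 0.09, edgeR adjusted p = 2.69e-13). At 48 h its fitted log2 changes were 0.46 in HY33 and 0.90 in HY9115. Those of Ah13g141800, another of these 4 genes, were 0.36 and 0.92 at 48 h. None of these 48 h values was called. Both kept genes with terms for chlorophyll catabolism and lyase activity, Ah08g066800 and Ah17g431000, fell at 3 h (-1.60 and -1.43 in HY33, -1.45 and -1.42 in HY9115) and at 48 h (-2.24 and -2.71 in HY33, -1.67 and -2.46 in HY9115).

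On the iron branch, 3 of the 10 ferrochelatase copies rose under salt, and of the 4 heme oxygenase copies 2 fell and 1 rose. Ferrochelatase Ah17g490700 (chromosome 17, positions 132863595 to 132867169, minus strand) stood at 13.99, 13.6 and 14.02 FPKM at 3 h and 21.4, 18.4 and 21.4 FPKM at 48 h in HY33, against 4.66, 5.07 and 4.86 FPKM at 0 h. The HY9115 libraries held 14.6, 15.4 and 16.4 FPKM at 3 h and 22.4, 18.9 and 21.2 FPKM at 48 h, against 5.18, 5.25 and 4.92 FPKM at 0 h. Every salt-time library lay above every 0 h library. The log2 changes at 3 h were 1.48 ± 0.11 in HY33 and 1.61 ± 0.10 in HY9115 (edgeR adjusted p = 8.69e-14 and 6.45e-15), and at 48 h they were 2.44 ± 0.10 and 2.28 ± 0.10 (edgeR adjusted p = 2.39e-20 and 1.14e-19). The gene was called higher in all 8 comparisons with 0 h, as was Ah05g099000, and they were the only kept genes of the pathway of which this held. How many of all tested genes were called so was not counted, and the comparisons of a cultivar share its 0 h libraries.

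Ah05g099000 has no gene ontology term and is a ferrochelatase by orthology alone. It stood at 22.4, 19.5 and 23.6 FPKM at 48 h in HY33, against 3.75, 3.69 and 3.23 FPKM at 0 h (log2 change 3.00 ± 0.13, edgeR adjusted p = 2.57e-20). The values in HY9115 were 26.3, 21.9 and 29.4 FPKM at 48 h, against 3.78, 3.9 and 4.1 FPKM at 0 h (log2 change 2.98 ± 0.13, edgeR adjusted p = 1.85e-20). Ah08g118200, the third copy, held 8.53, 9.02 and 8.66 FPKM at 48 h in HY33, against 3.39, 2.91 and 3.3 FPKM at 0 h. The HY9115 libraries held 9.05, 7.88 and 9.37 FPKM at 48 h, against 3.59, 3.86 and 3.09 FPKM at 0 h (log2 changes 1.82 in HY33 and 1.57 in HY9115, both called). It overlaps another gene, and its calls at 3 h were lost without HY33 0 h replicate 2 (0.99) or HY33 3 h replicate 2 (0.95) in HY33 and without HY9115 0 h replicate 3 (0.98) in HY9115. The copy with the highest mean level, Ah03g403200, stayed at 14.3, 13.3 and 11.7 FPKM at 48 h in HY33, against 17.98, 16.5 and 19.4 FPKM at 0 h. Its HY9115 libraries had 12.8, 12.8 and 13.3 FPKM at 48 h, against 19.5, 17.7 and 19.04 FPKM at 0 h. Its fitted changes were between -0.37 and 0.14 over the 8 comparisons and none was called. The 10 copies together were at 148% of the 0 h level at 48 h in HY33 and 143% in HY9115.

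Heme oxygenase turns heme into biliverdin, and its copy Ah01g404700 had the more negative change from 0 h in HY9115 at 24 h. Ah01g404700 (chromosome 1, positions 106622301 to 106624035, plus strand) stood at 51.1, 50.4 and 50.8 FPKM at 24 h in HY33, against 94.3, 85.5 and 74.3 FPKM at 0 h (log2 change -0.62 ± 0.10, edgeR adjusted p = 1.24e-06). In HY9115 the gene had 45.2, 48.7 and 48.6 FPKM at 24 h, against 152, 179 and 151 FPKM at 0 h (log2 change -1.70 ± 0.10, edgeR adjusted p = 1.53e-16). The levels at 24 h were close, and the cultivars were apart at 0 h, where HY33 was lower by -0.91 ± 0.09 on the log2 scale (edgeR adjusted p = 1.52e-09). The difference between the changes at 24 h was 1.08 ± 0.13 (edgeR adjusted p = 4.87e-07). At 48 h it held 28.9, 32.3 and 27.8 FPKM in HY33 and 37.02, 42.96 and 34.2 FPKM in HY9115, with called changes of -1.14 and -1.81. Ah13g301800, the copy with the highest level, held 42.02, 39.8 and 39.9 FPKM at 48 h in HY33, against 128, 116 and 104 FPKM at 0 h. HY9115 gave 45.2, 52.4 and 43.6 FPKM at 48 h, against 177, 203 and 162 FPKM at 0 h (log2 changes -1.14 in HY33 and -1.68 in HY9115, both called). In HY9115 it was also called lower at 3, 12 and 24 h (-1.05, -1.06 and -1.39), and the 3 h call was lost without HY9115 0 h replicate 2 (-0.94) or HY9115 3 h replicate 3 (-0.98), the 12 h call without HY9115 0 h replicate 2 (-0.94). The copy that rose was Ah04g071600 (1.09 at 48 h in HY33), which is outside the naming rule and is named after its value was seen, and the 20 genes around it had a median change of -1.001 there. This copy overlaps another gene on its chromosome by 662 bases and was called in no other comparison with 0 h.

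**Figure D5:**
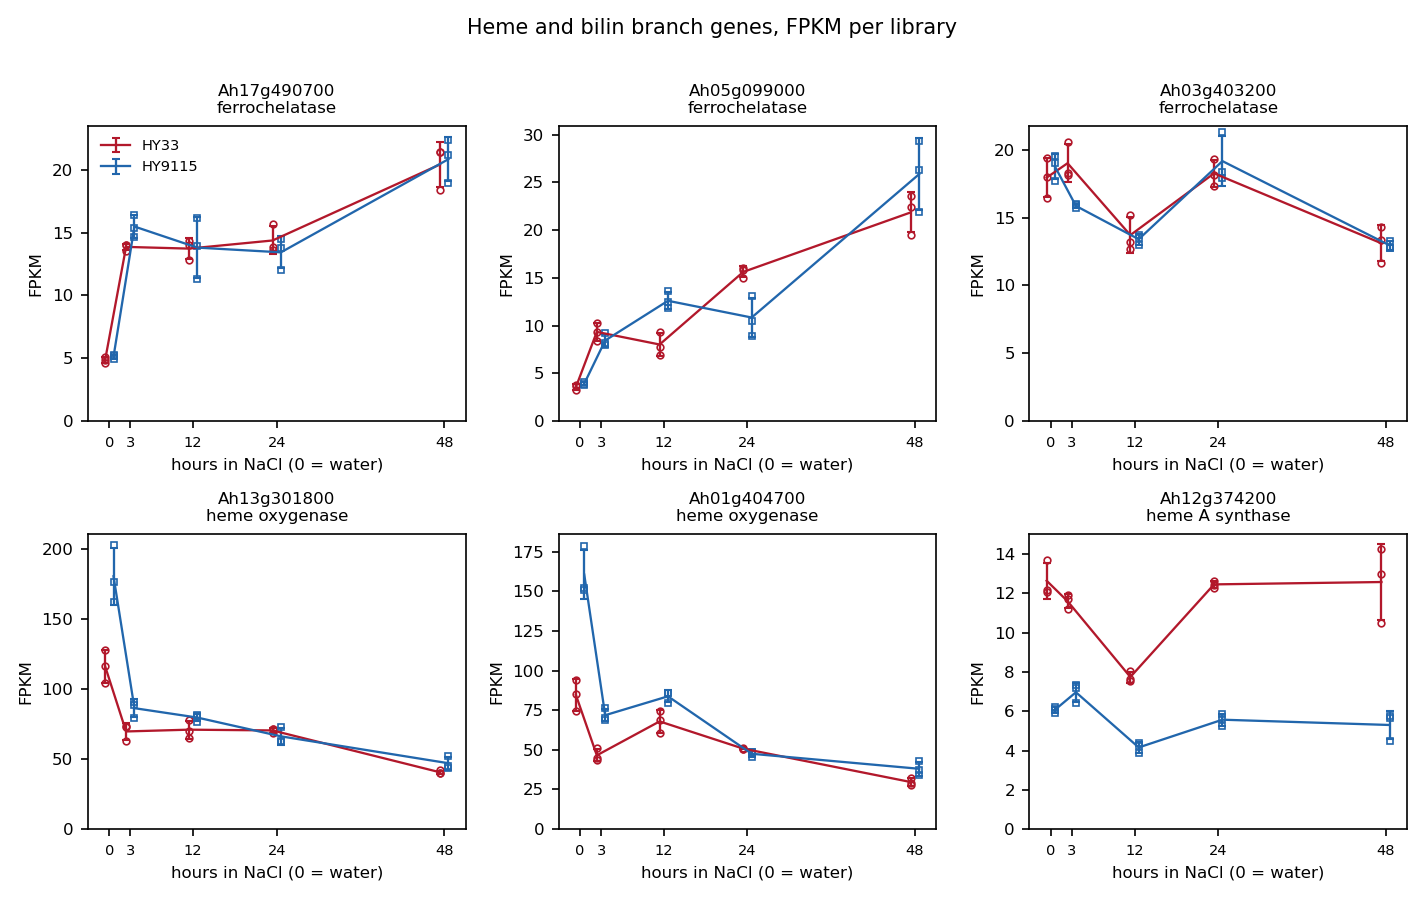
FPKM (vertical axes) against hours in 100 mM NaCl (horizontal axis) for 6 genes of the heme and bilin branch in HY33 and HY9115; points are libraries, lines join means and bars are standard deviations over 3 libraries. Ferrochelatase genes Ah17g490700 and Ah05g099000 reach 18.4 to 29.4 FPKM at 48 h, both heme oxygenase genes start higher in HY9115 (151 to 203 FPKM) than in HY33 (74.3 to 128 FPKM), and heme A synthase Ah12g374200 is higher in HY33 at every time.

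Further genes of the heme branch stayed under the thresholds of a call. Phytochromobilin synthase, which makes the phytochrome pigment, was not called in any of 3 copies, and Ah17g045500 held 1.77, 2.47 and 2.59 FPKM at 48 h in HY33, against 4.14, 3.89 and 4.82 FPKM at 0 h. In HY9115 its libraries held 3.41, 3.6 and 4.16 FPKM at 48 h, against 5.38, 6.31 and 6.0 FPKM at 0 h. Heme O synthase, which serves mitochondrial cytochrome oxidase, had 10.8, 10.3 and 10.1 FPKM in copy Ah19g501600 at 48 h in HY33, against 7.35, 6.36 and 7.04 FPKM at 0 h (log2 change 0.97 ± 0.09, edgeR adjusted p = 4.36e-11). In HY9115 this copy had 9.78, 9.99 and 9.96 FPKM at 48 h, against 7.66, 7.79 and 7.66 FPKM at 0 h (log2 change 0.62 ± 0.09, edgeR adjusted p = 3.89e-07). All 48 h libraries were above all 0 h libraries, and both changes were under the fold threshold. Frataxin Ah09g141600, an iron protein of mitochondria, was between -0.01 and 0.54 over the 8 comparisons, with no call.

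Between the cultivars at the same time, few members were called. HY33 was above HY9115 for 1 gene and below it for 3 at 0 h, where 5.71% of all tested genes were called in either direction. The counts were 1 and 2 at 3 h (background 5.85%), 0 and 2 at 12 h (3.76%), 1 and 2 at 24 h (5.16%) and 3 and 3 at 48 h (9.02%). At each time this is no more than the background share of 111 genes. The 0 at 12 h was also 0 by DESeq2 and limma, with an unadjusted p under 0.05 and a higher level in HY33 for 10 members. The count at 24 h was 6 without HY33 24 h replicate 1 and 5 without HY9115 24 h replicate 1 or 2, and that at 48 h was 3 without HY9115 48 h replicate 1. Heme A synthase Ah12g374200 (chromosome 12, positions 109506507 to 109510265, minus strand) held 12.2, 12.1 and 13.7 FPKM in HY33 and 6.23, 6.09 and 5.91 FPKM in HY9115 at 0 h, and 12.99, 10.5 and 14.3 FPKM in HY33 and 5.76, 4.47 and 5.67 FPKM in HY9115 at 48 h. No HY33 library overlapped a HY9115 library of the same time. The log2 difference was 1.07 ± 0.10 at 0 h, 1.23 ± 0.10 at 24 h and 1.38 ± 0.10 at 48 h (edgeR adjusted p = 2.36e-10, 1.42e-11 and 9.11e-13), and 0.70 and 0.89 at 3 and 12 h, without a call.

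Genes with few or no counts in HY33 made up most of the lower calls. Ah14g474600, a uroporphyrinogen decarboxylase copy (chromosome 14, positions 137869994 to 137875470, plus strand), had 0 counts in all 15 HY33 libraries, against 4.53 to 9.23 FPKM in the HY9115 libraries. Set against a floor of 3 counts over each group, HY33 was at least 41.5-fold lower at 0 h, 44.0-fold at 3 h, 37.8-fold at 12 h, 40.8-fold at 24 h and 37.5-fold at 48 h. The 20 genes around it had median log2 differences between HY33 and HY9115 of -2.51, -0.28, -0.17, -1.15 and -0.03 at 0, 3, 12, 24 and 48 h. Ah18g252300 summed to 0, 1, 4, 0 and 2 counts in the 3 HY33 libraries of 0, 3, 12, 24 and 48 h, against 185, 188, 229, 295 and 155 counts in HY9115. HY33 was at least 62.9-fold lower at 0 h and 94.1-fold lower at 24 h, and the ratio of scaled counts was 0.00540 at 3 h (exact 95% interval 0.000136 to 0.0304), 0.0185 at 12 h (0.00499 to 0.0479) and 0.0127 at 48 h (0.00153 to 0.0467).

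The cultivars' changes from 0 h were then compared directly. The difference was called for 1 member at 3 h, where 4.45% of all tested genes were called, for 2 at 12 h (4.52%), 2 at 24 h (3.74%) and 2 at 48 h (8.0%). These shares of 111 genes lie under the background. The count at 3 h was 3 without HY33 3 h replicate 1 or 2 or HY9115 0 h replicate 3, and 2 without HY33 0 h replicate 3 or HY9115 3 h replicate 2. At 12 h it was 1 without HY33 0 h replicate 2, HY33 12 h replicate 1 or 2, HY9115 0 h replicate 2 or 3, or HY9115 12 h replicate 2 or 3. At 24 h it was 1 without HY33 0 h replicate 2, HY33 24 h replicate 1, HY9115 0 h replicate 2 or 3, or HY9115 24 h replicate 1 or 2, and at 48 h it was 1 without HY9115 48 h replicate 3. By adjusted p alone, without a fold threshold, 29 of 111 members differed at 3 h, 26 with the more positive change in HY33 and 3 with the more negative one, against 5.92% and 8.03% of all tested genes. Among them were 14 of the 32 synthesis genes, all with the more positive change in HY33. At 48 h 35 members differed by that measure, 27 more positive and 8 more negative in HY33, against 14.3% and 9.42% of all tested genes. The synthesis genes among these were 11 more positive and 3 more negative. At 12 h 10 members were more positive and 4 more negative, against 7.76% and 7.98%, and at 24 h 8 and 3, against 5.47% and 5.06%. The synthesis genes among these were 5 at 12 h, all more positive in HY33. At 24 h they counted 0 by edgeR's adjusted p, 6 by an unadjusted p under 0.05 and 0 by the calls of DESeq2 or limma.

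Antenna proteins bind most of the chlorophyll of a leaf, and their genes were counted as a list of 34 kept genes. In HY33 7, 26, 9 and 25 fell at 3, 12, 24 and 48 h, and in HY9115 11, 19, 3 and 25 fell. These shares (20.6, 76.5, 26.5 and 73.5% in HY33, 32.4, 55.9, 8.8 and 73.5% in HY9115) lay above those of all tested genes given above, except at 24 h in HY9115. Their summed level was 1778 FPKM at 48 h in HY33, against 8703 FPKM at 0 h, and 1669 FPKM at 48 h in HY9115, against 7408 FPKM at 0 h. The 102 kept genes of the photosynthesis pathway counted 4 higher and 67 lower at 48 h in HY33 and 3 higher and 56 lower in HY9115, and the 46 carotenoid genes 3 higher and 19 lower in HY33 and 4 higher and 14 lower in HY9115. The shares called lower there were 65.7% and 54.9% for photosynthesis and 41.3% and 30.4% for carotenoids, against 20.1% of all tested genes in HY33 and 21.3% in HY9115. In both cultivars the antenna sum was lower at 12 h than at 24 h, as the synthesis sum was (2896 and 4829 FPKM in HY33, 2808 and 5283 FPKM in HY9115), and 13 of all 54 antenna genes had no count. Root markers (Casparian strip, nitrate transporter and nicotianamine synthase genes, 31 kept of 64, 11 of them without a count) summed to 106 FPKM at 48 h in HY33, against 200.3 FPKM at 0 h, and to 126 FPKM in HY9115, against 241 FPKM. At 48 h 1 rose and 15 fell in HY33, and 2 rose and 20 fell in HY9115 (48.4% and 64.5% lower). The part of changed tissue shares in the results above was not tested.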

How the data were processed

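Gene counts and FPKM of 30 libraries were deposited by the authors in a single annotated table. The submitters' processing notes name HISAT2 2.2.1 with cutadapt 1.9.1, counting by HTSeq 0.6.1, and DESeq2. Build, annotation release and strand setting are not given in the sources used. The deposited FPKM values equal the counts per exon length and library total, within a tolerance of 0.005, in 100% of values. The members and gene lists were chosen with earlier results of these data known. Counts of 42311 genes (1 FPKM or more in at least 3 libraries) were fitted with edgeR 4.0.16 (TMM factors of 0.804 to 1.11, quasi-likelihood test, all 30 libraries, 17 contrasts) in R 4.3.3, and p-values were adjusted over all of them. The script was tested on simulated counts. For HY33 at 3 h against 0 h, adjusted p and fold together called 50% of genes changed by 1 on the log2 scale and 100% of those changed by 2, and 1 unchanged gene. Libraries held 13072324 to 18788677 counts. Intervals and floors cover counting error only, since reads without molecular identifiers are not independent molecules.

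Named were 61 members: in each step the copy with the highest mean FPKM, in each contrast up to 3 called members per direction with the largest change, and all kept breakdown genes. The text leaves some of them out. Alternatives were DESeq2 1.42.0, limma 3.58.1 on log2 FPKM with pseudocounts of 1 and 0.5, other size factors, other level filters, only the compared groups, a replicate block, 1 copy per step and single libraries left out. No sequence is printed and no genome was used, because 0 of the 160 identifiers matched the RefSeq table of peanut gene names.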

Additional observations from a re-analysis of the deposited data

Results flagged for a closer look

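The change from 0 h differed between the cultivars, by edgeR's test of the difference itself, for 6 genes in 7 comparisons, and these are given for a closer look. Chlorophyllase Ah16g022600 had the more negative change in HY33 by -3.02 at 12 h, where it had 2 counts in HY33 and 13 in HY9115, and by -1.40 at 24 h, where it had 72 and 140 counts. The 12 h call was lost when any of 8 of the 12 libraries was left out (-2.301 to -3.364) and the 24 h call for 6 of 12 (-1.203 to -1.352), and limma on log2(FPKM + 1) lost both (-0.686 and -0.994). The chlorophyll synthase copy Ah15g163600 differed by 1.72 at 12 h, with a lower level in HY9115 and not in HY33. Protochlorophyllide reductase Ah13g240000 differed by 1.22 at 3 h, when its HY33 libraries alone stood above 0 h. Heme oxygenase Ah01g404700 differed by 1.08 at 24 h, from a 0 h level that was higher in HY9115.

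At 48 h Ah06g164500, a glutamate-1-semialdehyde aminomutase copy, held 4.51, 3.84 and 3.86 FPKM in HY33, against 1.55, 1.24 and 1.71 FPKM at 0 h, and 2.2, 2.57 and 1.83 FPKM in HY9115, against 1.73, 1.70 and 1.44 FPKM at 0 h. Its difference of 1.11 was lost without HY9115 48 h replicate 3 (0.987) and with total-count scaling (0.988). Coproporphyrinogen oxidase Ah17g003600 held 2.53, 3.06 and 2.68 FPKM at 48 h in HY33, against 3.60, 3.63 and 4.21 FPKM at 0 h, and 2.05, 2.33 and 2.31 FPKM at 48 h in HY9115, against 6.56, 7.28 and 6.13 FPKM at 0 h, a difference of 1.22 that limma on log2(FPKM + 1) gave as 0.886, without a call. The share of all genes with such a call, between 3.74 and 8.0%, was above that of the members at each time. Groups of 3 libraries were not tested for outlying libraries.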

How the results depend on the processing

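Of the 151 called values of the named genes, 114 kept their direction and call under every alternative in which the gene was tested, and 0 changed direction. The calls lost were 29 with limma on log2(FPKM + 1), 16 with limma on log2(FPKM + 0.5), 5 with total-count scaling, 5 with no level filter, 4 with only the compared groups fitted, 1 with a minimum of 5 FPKM, and 58 of 948 values when single libraries were left out. The minimum of 5 FPKM kept 125 calls. The remaining values belong to genes that this filter removed, so it could not test them, and the 114 may include some. DESeq2, size factors by relative log expression and the replicate block lost 0 of the 151 calls by their own adjusted p. The replicate numbers did not pair the libraries: libraries of the same number deviated from their group means with correlations of -0.12 to 0.106 over 39 pairs, and in 0 of 13 comparisons were all pairs over 0.1. By adjusted p alone the members called numbered 45, 74, 63 and 84 at 3, 12, 24 and 48 h in HY33 and 62, 78, 62 and 79 at 3, 12, 24 and 48 h in HY9115, and 35, 37, 18, 32 and 42 at 0, 3, 12, 24 and 48 h between the cultivars, and 29, 14, 11 and 35 at 3, 12, 24 and 48 h for the difference in change. Of all tested genes that rule called 44.9, 59.3, 57.2 and 69.6% in HY33 and 42.5, 57.7, 52.8 and 69.6% in HY9115. Between the cultivars it called 24.9, 22.4, 14.6, 29.4 and 40.3% of them. For the difference in change it called 13.9, 15.7, 10.5 and 23.7%. With total-count scaling the members called numbered 56 at 48 h in HY33, and 5 at 24 h between the cultivars, and 1 at 48 h for the difference in change. There the synthesis median was -0.77, -0.57 and -1.41 at 12, 24 and 48 h in HY33 and -0.91 and -1.70 at 12 and 48 h in HY9115, and the breakdown median was -0.12, -0.18 and -0.80 at 12, 24 and 48 h in HY33 and -0.23, -0.027 and -0.68 at 12, 24 and 48 h in HY9115. With limma on log2(FPKM + 0.5) the members called numbered 50 at 48 h in HY33, and 2 and 3 at 0 and 48 h between the cultivars, and 1 and 0 at 12 and 48 h for the difference in change. There the synthesis median was -0.77, -0.56 and -1.34 at 12, 24 and 48 h in HY33 and -0.87 and -1.64 at 12 and 48 h in HY9115, and the breakdown median was -0.11, -0.17 and -0.76 at 12, 24 and 48 h in HY33 and -0.24, -0.026 and -0.60 at 12, 24 and 48 h in HY9115. With limma on log2(FPKM + 1) the members called numbered 5 at 24 h in HY9115, and 2 and 3 at 0 and 48 h between the cultivars, and 1, 1 and 0 at 12, 24 and 48 h for the difference in change. There the synthesis median was -0.27, -0.74, -0.54 and -1.28 at 3, 12, 24 and 48 h in HY33 and -1.55 at 48 h in HY9115, and the breakdown median was -0.11, -0.17 and -0.73 at 12, 24 and 48 h in HY33 and -0.23, -0.023 and -0.54 at 12, 24 and 48 h in HY9115. With a minimum of 5 FPKM in 3 libraries the members called numbered 5 at 24 h in HY9115, and 3 at 48 h between the cultivars, and 0, 1 and 1 at 12, 24 and 48 h for the difference in change. There the synthesis median was -0.76, -0.53 and -1.30 at 12, 24 and 48 h in HY33 and -0.68, -0.87 and -1.53 at 3, 12 and 48 h in HY9115, and the breakdown median was 0.078 and -0.12 at 24 and 48 h in HY9115. With no level filter the synthesis median was -0.41 and -0.99 at 24 and 48 h in HY33 and -1.40 at 48 h in HY9115, and the breakdown median was -0.38 at 48 h in HY33 and -0.38 at 48 h in HY9115. With 1 copy per step the synthesis median was -0.41, -0.61 and -0.99 at 3, 12 and 48 h in HY33 and -0.87 and -1.48 at 3 and 48 h in HY9115, and the breakdown median was -0.15 and -0.32 at 3 and 48 h in HY33 and -0.34, -0.10 and -0.37 at 12, 24 and 48 h in HY9115. With DESeq2 the members called numbered 2 at 3 h for the difference in change. With only the compared groups fitted the members called numbered 2 at 3 h for the difference in change. Without the 5 genes whose ontology terms name another activity, an alternative chosen after seeing the data, the synthesis median was -0.99 at 48 h in HY33, and the breakdown median was -0.53 at 48 h in HY33 and -0.15, -0.23, -0.042 and -0.47 at 3, 12, 24 and 48 h in HY9115. Without single libraries the counts of called members ranged from 3 to 6 at 24 h and 3 to 7 at 48 h between the cultivars, and for the difference in change from 1 to 3 at 3 h, 1 to 2 at 12 h, 1 to 3 at 24 h and 1 to 3 at 48 h. The synthesis medians then ranged from -0.368 to -0.262 at 3 h, -0.474 to -0.395 at 24 h and -1.103 to -1.019 at 48 h in HY33, and from -0.674 to -0.578 at 3 h, -0.871 to -0.746 at 12 h and -1.471 to -1.384 at 48 h in HY9115. The breakdown medians ranged from -0.075 to 0.068 at 12 h and -0.479 to -0.302 at 48 h in HY33, and from -0.176 to -0.057 at 3 h, -0.256 to -0.069 at 12 h, 0.018 to 0.102 at 24 h and -0.413 to -0.329 at 48 h in HY9115. At 3 h in HY33 the breakdown medians ranged from -0.036 to 0.078. The sign of the breakdown median is thus not settled at 3 and 12 h in HY33 or at 24 h in HY9115, where the values in the text (0.012, -0.017 and 0.036) lie near 0 and several of these settings give the other sign. The cause of these changes was not tested. For genes under 1 FPKM a few counts limit what can be called.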
